A study of Danio rerio with 8 samples.

Results

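A stretch of zebrafish (Danio rerio) chromosome 7 and another of chromosome 25 held dense runs of strong transcription start sites. Several of these gave far fewer tags, or none, in one embryo stock than in the other. The windows run from 73000000 to 74000000 on chromosome 7 and from 34000000 to 35000000 on chromosome 25. They were chosen by measured values: both stood out among 1-Mb windows for their number of regions at least 4-fold apart between sa37 and wild type (WT) in the average over stages, in these same libraries. A region is a set of same-strand tag clusters that overlap between the study's 2 cluster lists, or a cluster of one list alone. The windows hold 299 regions of 42130 in all, 88 on chromosome 7 and 211 on chromosome 25. The genotype differences below are therefore a description of selected regions, given without a test.

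The libraries are cap analysis gene expression (CAGE) libraries from whole embryos, with 2 libraries in each of 4 groups. The groups were wild type at 12 hours post-fertilization (hpf), wild type at 16 hpf, jam3b-sa37 at 12 hpf and jam3b-sa37 at 16 hpf. No treatment is given for any group. The labels name neither the strain, the parents, the zygosity of sa37 nor the number of embryos per library, so the jam3b allele and any other difference between the stocks cannot be told apart. Nothing says that the 2 libraries of a group came from separate clutches, so p-values measure only the spread between these libraries, which may be technical.

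CAGE captures the capped 5′ ends of RNAs and counts tags at the base where each RNA begins, so a cluster of tags marks a transcription start site and its height follows the amount of RNA begun there. A start site can be narrow, with tags on a few bases, or broad. Jam3b is a junctional adhesion molecule, a cell-surface protein of cell contacts, and in zebrafish it is known for its part in the fusion of muscle precursor cells. In RNA from whole embryos, fewer cells of a type and less RNA per cell cannot be told apart. The files name positions and not genes, and an annotation of their genome build (danRer10, per the submitters' processing notes) was not used here, so no gene is named for any region. For the same reason the level of jam3b, which would check the genotype labels, was not looked up here.

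Values are RPM, tags per 1000000 tags of the library. The distinct clusters listed for a library held 10662458 to 23300915 tags, as recovered from the RPM values. In the libraries called replicate 1 (titles without a number) the lowest value above 0 was 0.51 to 0.55 RPM, and in replicate 2 it was 0.042 to 0.057 RPM, or 1 tag. A value of 0 in replicate 1 can thus hide a level up to about 0.5 RPM. In replicate 2 a count of 0 allows up to 3 tags, or 0.125 to 0.172 RPM. These limits cover counting error only. In replicate 1 the limit can be higher for narrow clusters. At chr25:34545433-34545434, 1 base wide and of list 1 alone, the replicate 1 libraries were at 2.02 to 2.35 RPM or at 0. The fold bounds below use the lowest listed value and do not allow for this. Replicate 1 and replicate 2 also came with different cluster lists, so the replicate number and the list cannot be told apart.

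On each chromosome the tags came almost entirely from a compact array of strong, narrow start sites. Of the 88 regions on chromosome 7, 18 were strong, meaning 100 RPM or more as the mean of the 8 libraries, and these held 97.3 to 99.5% of the window's RPM in each library. On chromosome 25 it was 42 of 211 regions, with 98.4 to 99.4% of the RPM. The median width of the strong regions was 25 bases on chromosome 7 and 18 bases on chromosome 25. It was 115 bases for the 1108 strong regions elsewhere in the genome, which passed the same bound of 100 RPM but were not matched for level. Their mean levels ran from 304 to 2180 RPM (median 1017) on chromosome 7 and from 195 to 3882 RPM (median 1472) on chromosome 25.

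The strong start sites followed each other at short distances. On chromosome 7 they spanned 44923 bases (chr7:73590819-73635742), with 9 on each strand. The gap between neighbours was 1061 to 17928 bases with a median of 1426, and 16 of 17 gaps were shorter than 5000 bases. On chromosome 25 they spanned 110589 bases (chr25:34540284-34650873), with 14 on the plus strand and 28 on the minus strand. Their gaps were 863 to 35483 bases with a median of 1464, and 39 of 41 were shorter than 5000 bases. Neighbours mostly pointed the same way. On chromosome 7, 14 neighbouring pairs lay on the same strand, 2 pointed away from each other and 1 pointed toward each other. On chromosome 25 the numbers were 36, 3 and 2. Each array was split by its longest gap, and in both the longest gap lay between a plus-strand run and a minus-strand run that faced each other. On chromosome 25 a gap of 6800 bases within a minus-strand run was also longer than 5000 bases.

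**Figure D1:**
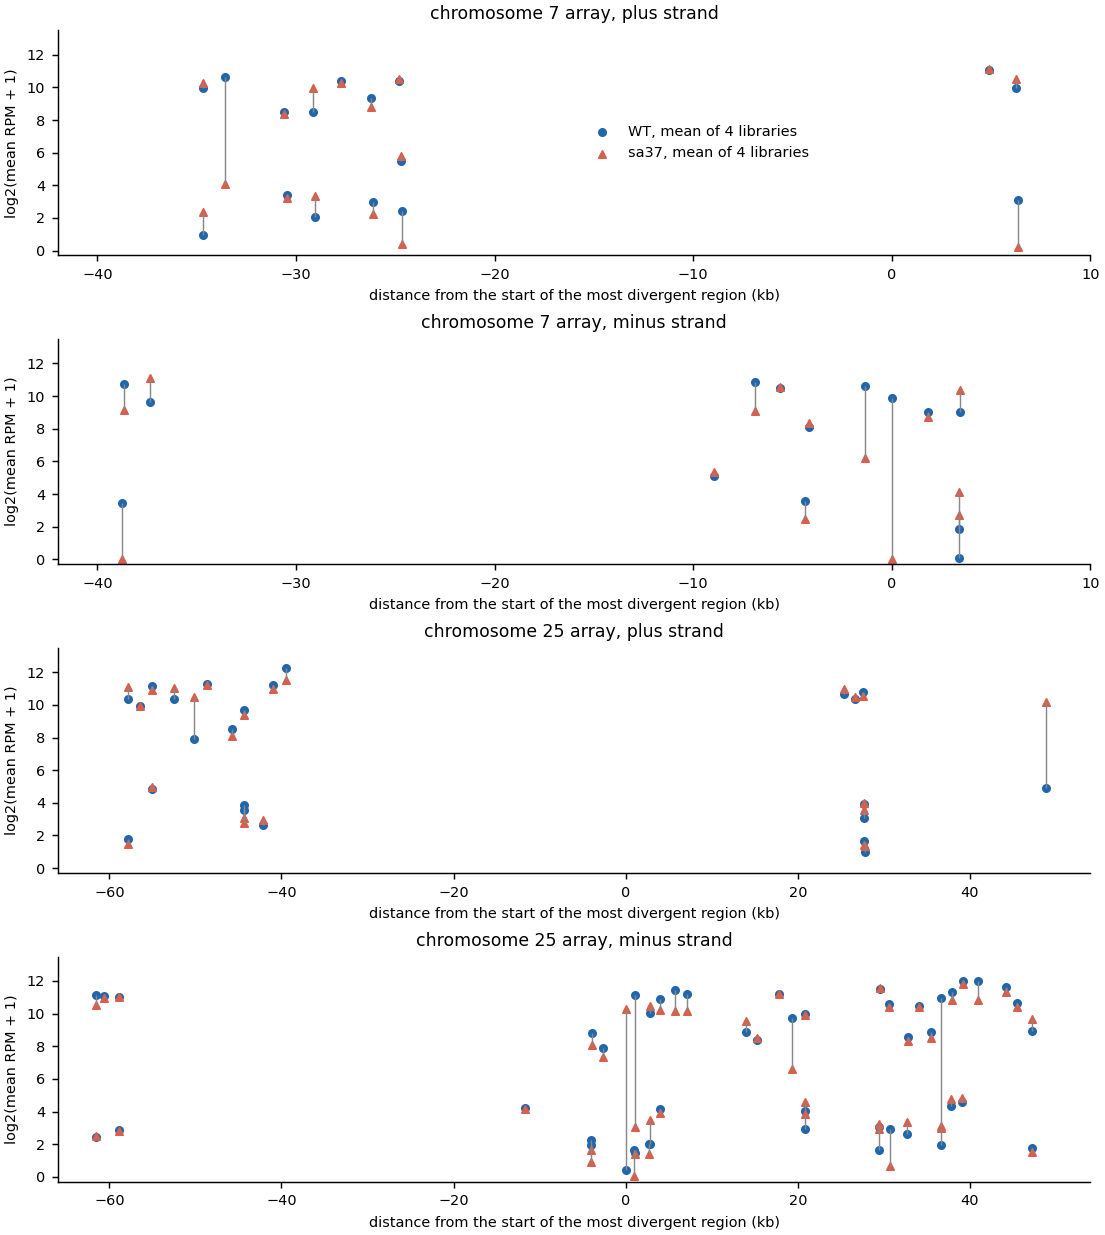
Mean levels of the tested regions along the arrays, by chromosome and strand. The x axis is the distance in kb from the start of the most divergent region of that chromosome and the y axis is log2(mean RPM + 1), with circles for WT and triangles for sa37 (4 libraries each) and a line joining the means of a region. Most strong regions sit at similar heights in both genotypes, while 9 of the 60 strong regions are joined by long lines.

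Most of the remaining regions were weak and lay beside a strong one. On chromosome 7, 47 regions lay within 200 bases of a strong region on the same strand, 37 of them downstream, that is, further along the direction of transcription. On chromosome 25 there were 121 such regions, 88 of them downstream. Their median level was 1.11 RPM on chromosome 7 and 1.82 RPM on chromosome 25, and their median width was 3 bases on both. Only 23 regions on chromosome 7 and 48 on chromosome 25 were neither strong nor beside a strong region. Of the 299 regions, 147 appeared in one list alone (112 in list 1, 35 in list 2), and 21 of both lists had a mean under 1 RPM. The 131 others, 40 on chromosome 7 and 91 on chromosome 25, entered the comparisons below. The bound of the windows fell in sparse ground: the regions nearest to a bound on either side had levels of at most 20.03 RPM and differences between genotypes of at most 0.71 on the log2(RPM + 1) scale.

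Among 1348 windows of 1 Mb, the chromosome 25 window ranked first in its number of regions, in its number of strong regions and in summed level (64064 RPM on average). The chromosome 7 window ranked 22 in regions, 4 in strong regions and 6 in summed level (18143 RPM). The median window held 26 regions, 0 strong regions and 256 RPM. The 2 windows together thus hold a large part of each library. The distinct clusters of a library added up to 905534 to 969860 RPM. Of this sum the chromosome 25 window took 4.70 to 8.93% and the chromosome 7 window 1.31 to 2.60%.

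The highest start site of both windows was on chromosome 25. The region chr25:34562324-34562343 on the plus strand was at 6062 and 4395 RPM in WT at 12 hpf (replicates 1 and 2), 5224 and 3807 in WT at 16 hpf, 3798 and 2811 in sa37 at 12 hpf, and 2902 and 2054 in sa37 at 16 hpf. All 4 WT libraries were above all 4 sa37 libraries, the lowest WT value by a narrow margin. On the minus strand, chr25:34640981-34640996 had 4143 ± 256 RPM in WT and 3535 ± 254 in sa37 (SD, n = 4 libraries of both stages), and chr25:34631294-34631314 had 2874 ± 536 and 3025 ± 616. On chromosome 7 the highest was chr7:73634395-73634406 on the plus strand, with 2117 ± 369 RPM in WT and 2243 ± 489 in sa37. Next came chr7:73592107-73592177 on the minus strand, with 809 ± 365 and 2244 ± 410, and chr7:73623865-73623900 on the minus strand, with 1430 ± 138 and 1489 ± 145. Of these 6 start sites, 4 differed between genotypes by less than 0.25 on the log2(RPM + 1) scale.

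Between the genotypes, 15 of the 131 compared regions were at least 4-fold apart in the average over stages, 5 higher and 10 lower in sa37. Over all 19000 compared regions of the genome, 0.632% were at least 4-fold higher in sa37 and 0.4% at least 4-fold lower, 1.03% in all. Since this count chose the windows, nothing is read from the excess. Of the 60 strong regions 9 (15%) were at least 4-fold apart, 6 lower and 3 higher, against 1.17% of the 1108 strong regions elsewhere. At least 2-fold apart were 17 (28.3%), against 3.16% of those 1108 and 4.35% of all compared regions. These shares rest on the same choice of windows. The median difference of all 60 was -0.21 on the log2(RPM + 1) scale, and that of the 51 strong regions under 4-fold was -0.15, with quartiles of -0.42 and 0.13. Over all compared regions the median was 0.06.

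On chromosome 7 the clearest case was a start site with tags in every WT library and in no sa37 library. The region chr7:73629474-73629491 on the minus strand was at 1171 and 859 RPM in WT at 12 hpf (replicates 1 and 2) and 918 and 787 at 16 hpf, and it was at 0 in all 4 sa37 libraries. With sa37 set to its floor of 0.332 RPM (the mean over libraries of 3 tags or, in replicate 1, of the lowest listed value), it was at least 2817-fold lower in sa37. Its upstream neighbour on the same strand, chr7:73631318-73631363, was at 514 ± 340 RPM in WT and 430 ± 291 in sa37 (SD, n = 4). The difference was -0.23 on the log2(RPM + 1) scale. These SDs pool both stages and both replicate numbers, so they do not measure the spread within a group. The next strong region downstream on that strand, chr7:73628145-73628166, was also low in sa37. It was at 1974 and 1424 RPM in WT at 12 hpf, 1640 and 1386 in WT at 16 hpf, 132 and 32.4 in sa37 at 12 hpf, and 102 and 21.6 in sa37 at 16 hpf. The groups did not overlap, and the WT mean was 22.3-fold the sa37 mean.

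The third strong region to be low in sa37 on chromosome 7 lay on the plus strand, at chr7:73595912-73595925. It was at 1886 and 1445 RPM in WT at 12 hpf, 1490 and 1413 in WT at 16 hpf, 28.9 and 8.70 in sa37 at 12 hpf, and 19.7 and 5.32 in sa37 at 16 hpf. The genotypes did not overlap, and the WT mean was 99.6-fold the sa37 mean. Its neighbour 1061 bases upstream on the same strand, chr7:73594810-73594851, was at 1001 ± 68.8 RPM in WT and 1209 ± 219 in sa37 (SD, n = 4).

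Another 5 strong regions of chromosome 7 were 2- to 4-fold apart, and none of them overlapped between genotypes. Of all 131 compared window regions, 11 lay wholly higher and 21 wholly lower in sa37, against 487 and 309 of the 19000. These 5 were picked by their difference, so the lack of overlap adds little to it. Lower in sa37 were chr7:73622596-73622615 on the minus strand, with 1871 ± 190 RPM in WT and 545 ± 94.1 in sa37 (SD, n = 4), which was the region just under the 4-fold bound, and chr7:73590819-73590837 on the minus strand, with 1690 ± 274 and 578 ± 149. Higher in sa37 were chr7:73592107-73592177, named above, chr7:73600315-73600338 on the plus strand, with 365 ± 70.3 RPM in WT and 997 ± 156 in sa37, and chr7:73632934-73632969 on the minus strand, with 524 ± 153 and 1336 ± 214. The first of the lower and the first of the higher regions of the array's left end are neighbours, 1270 bases apart on one strand. The sum of chr7:73590819-73590837 and chr7:73592107-73592177 was 2499 ± 625 RPM in WT and 2822 ± 534 in sa37, a ratio of 1.13, so their opposite differences nearly cancelled in the sum.

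On chromosome 25 a neighbouring pair of strong regions differed in opposite directions. The region chr25:34602855-34602885 on the minus strand was at 2878 and 1739 RPM in WT at 12 hpf (replicates 1 and 2), 3373 and 1233 in WT at 16 hpf, 16.7 and 0.687 in sa37 at 12 hpf, and 11.8 and 0.415 in sa37 at 16 hpf. The region chr25:34601787-34601808, 1047 bases downstream on the same strand, was at 1.10 and 0.171 RPM in WT at 12 hpf, 0 and 0.168 in WT at 16 hpf, 1585 and 1089 in sa37 at 12 hpf, and 1553 and 804 in sa37 at 16 hpf. Neither region overlapped between genotypes, and they differed by -8.79 and 9.86 on the log2(RPM + 1) scale, the second being the largest difference of all 19000 regions in size. Without replicate 1 of sa37 at 12 hpf the first difference was -9.42, and without replicate 2 of sa37 at 16 hpf it was -8.20. The 4 WT libraries together held 22 tags at chr25:34601787-34601808. The sum of the pair was 2306 ± 990 RPM in WT and 1265 ± 386 in sa37 (SD, n = 4), a ratio of 0.549. Upstream, chr25:34604604-34604623 on the same strand was at 1061 ± 116 RPM in WT and 1385 ± 224 in sa37.

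Another 2 start sites of chromosome 25 were lower in sa37, the first with sa37 tags in replicate 1 only. The region chr25:34638425-34638435 on the minus strand was at 2696 and 1326 RPM in WT at 12 hpf, 2952 and 985 in WT at 16 hpf, 17.1 and 0 in sa37 at 12 hpf, and 13.99 and 0 in sa37 at 16 hpf. The groups did not overlap, and the WT mean was 256-fold the sa37 mean. The size of this difference rested on the sa37 replicate numbers: it was -8.79 on the log2(RPM + 1) scale, -9.51 and -9.42 without replicate 1 of sa37 at 12 and at 16 hpf, and -8.12 without replicate 2 of sa37 at either stage. Its neighbours on that strand had tags in both genotypes: chr25:34637214-34637224 was at 459 ± 146 RPM in WT and 356 ± 32.3 in sa37 (SD, n = 4), and chr25:34639677-34639694 was at 2584 ± 542 and 1806 ± 267. The region chr25:34621091-34621103 on the minus strand was at 1147 and 484 RPM in WT at 12 hpf, 1355 and 375 in WT at 16 hpf, 168 and 38.7 in sa37 at 12 hpf, and 137 and 34.1 in sa37 at 16 hpf. It did not overlap between genotypes either, with a WT mean 8.90-fold the sa37 mean.

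The other strong regions higher in sa37 lay on the plus strand of chromosome 25. The region chr25:34650658-34650873, the last of the array and its broadest at 215 bases, was at 35.9 and 33.2 RPM in WT at 12 hpf, 19.9 and 27.9 in WT at 16 hpf, 1472 and 920 in sa37 at 12 hpf, and 1520 and 771 in sa37 at 16 hpf. It had a sa37 mean 40.1-fold the WT mean, with no overlap. The region chr25:34551618-34551631 was at 551 and 197 RPM in WT at 12 hpf, 0 and 211 in WT at 16 hpf, 2358 and 891 in sa37 at 12 hpf, and 1625 and 904 in sa37 at 16 hpf. All sa37 libraries were above all WT libraries, but the size of the difference rested on the single WT library at 0. The difference was 4.26 with that library and 2.22 without it, and 5.25 without replicate 1 of WT at 12 hpf. The cause of this 0 was not tested.

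**Figure D2:**
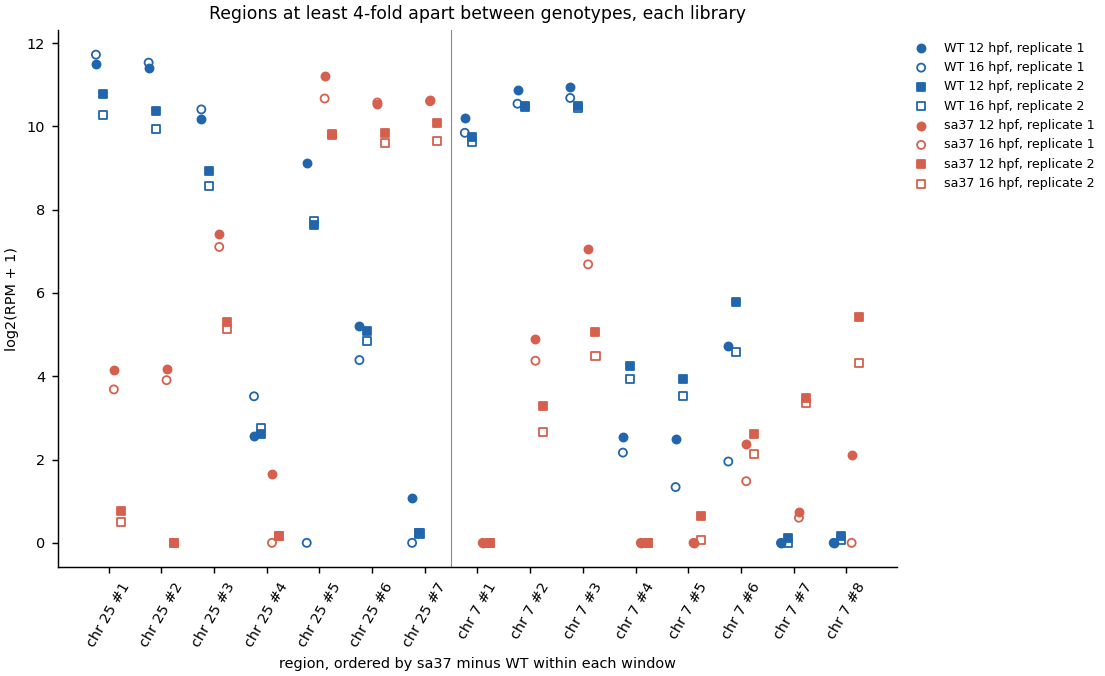
Values of every library in the 15 regions at least 4-fold apart, ordered within each window from the lowest to the highest sa37 minus WT difference. The y axis is log2(RPM + 1), colour marks genotype, circles mark replicate 1, squares replicate 2, filled symbols 12 hpf and open symbols 16 hpf. Chromosome 7 number 1 has all 4 sa37 libraries at 0, chromosome 25 number 7 has WT at 0 to 1.10 RPM, and chromosome 25 number 5 shows the single WT library at 0.

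Replicate 1 was mostly higher than replicate 2 at the strong regions at least 4-fold apart. In 5 of the 6 strong regions at least 4-fold lower in sa37, both replicate 1 sa37 libraries were above the replicate 2 library of the same stage, and the exception was the region at 0 in all of them. In WT the same held in 6 of the 6. At chr25:34638425-34638435 replicate 1 gave 13.99 to 17.1 RPM where replicate 2 gave 0. For the 3 strong regions higher in sa37 the count was 3 of 3 in sa37 and 0 of 3 in WT. The summed RPM of the strong regions under 4-fold was also higher in replicate 1 than in replicate 2, in every group and in both windows. The cluster lists differ between the replicate numbers, and whether tags of these starts also align elsewhere was not tested.

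Another 3 strong regions of chromosome 25 were about 2-fold lower in sa37. The region chr25:34607533-34607543 on the minus strand had 2798 ± 609 RPM in WT and 1148 ± 274 in sa37 (SD, n = 4), with no overlap. The region chr25:34642743-34642773 had 4042 ± 1652 and 1798 ± 887, and chr25:34608954-34608973 had 2318 ± 698 and 1162 ± 652, and both overlapped between genotypes.

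The remaining 6 of the 15 were weak. Of these, 4 lay within 200 bases of a strong region. The region chr7:73590718-73590729 on the minus strand was at 3.49 to 17.9 RPM in the 4 WT libraries and 0 in the 4 sa37 libraries, at least 30.4-fold lower against the floor. The region chr7:73635808-73635849 on the plus strand was at 1.53 to 14.2 RPM in WT and 0 to 0.572 in sa37, although the strong region 66 bases upstream of it, chr7:73635706-73635742, was higher in sa37 by 0.61 on the log2(RPM + 1) scale. The region chr25:34632507-34632517 on the minus strand was at 4.94 to 10.5 RPM in WT and 0 to 2.14 in sa37, and with a difference of -2.37 it was the region of that window just past the 4-fold bound. The groups overlapped in none of these 3.

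The other weak regions depended more on single libraries. The region chr7:73632882-73632885 on the minus strand was at 42.1 and 18.9 RPM in the replicate 2 sa37 libraries, 3.33 and 0 in replicate 1, and 0 to 0.129 in WT. Its difference of 2.91 became 3.90 without replicate 1 of sa37 at 16 hpf and 2.09 without replicate 2 of sa37 at 12 hpf. The region chr7:73043139-73043173 on the plus strand, 551637 bases from the nearest strong region of its strand, was at 10.1 and 9.26 RPM in replicate 2 of sa37, 0.68 and 0.52 in replicate 1, and 0 to 0.086 in WT. It was the region just past the 4-fold bound, with a difference of 2.02. The region chr7:73901632-73901638 on the plus strand was at 25.4 and 54.5 RPM in WT at 12 hpf, 2.87 and 23.0 in WT at 16 hpf, 4.19 and 5.15 in sa37 at 12 hpf, and 1.79 and 3.40 in sa37 at 16 hpf, with overlapping groups. Its difference of -2.11 became -2.88 without replicate 1 of WT at 16 hpf. On chromosome 25 the region just under the bound was chr25:34557478-34557481 on the plus strand, at 4.53 to 26.0 RPM in WT and 0 to 15.8 in sa37.

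All 15 differences had the same sign at 12 and 16 hpf. The regions were chosen by a large average over these stages, so equal signs were nearly fixed by the choice. At chr7:73629474-73629491 the difference was -9.97 at 12 hpf and -9.73 at 16 hpf on the log2(RPM + 1) scale, at chr25:34601787-34601808 it was 9.71 and 10.02, and at chr25:34602855-34602885 it was -8.68 and -8.90. At 12 hpf alone 16 regions were at least 4-fold apart, and at 16 hpf alone 14. In replicate 1 alone the count was 16 and in replicate 2 alone 17. Of the 15 regions, 11 were at least 4-fold apart in the same direction in both replicate numbers (3 higher and 8 lower in sa37). Over the genome this held for 71 higher and 42 lower of the 196 regions at least 4-fold apart. The same libraries chose these regions, so these counts are not a separate check. The widest disagreement between stages was that of chr25:34551618-34551631, at 2.13 and 6.38, which follows from the WT library at 0.

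**Figure D3:**
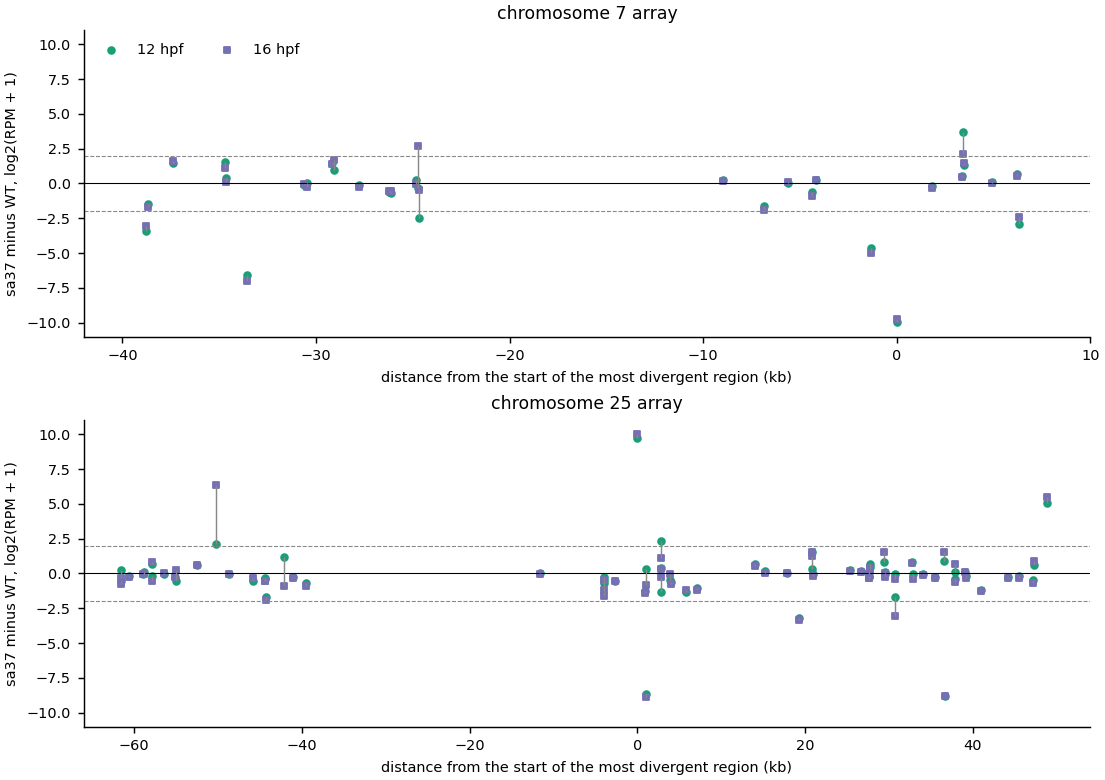
The sa37 minus WT difference of each tested region along the arrays at 12 hpf (circles) and 16 hpf (squares), on the log2(RPM + 1) scale, against the distance in kb from the start of the most divergent region. Dashed lines mark 4-fold. The long excursions, such as -9.97 and -9.73 on chromosome 7 and 9.71 and 10.02 on chromosome 25, are present at both stages, whose average chose the windows.

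The mean sum over each window was lower in sa37, and the parts of the arrays behind it differed. On chromosome 7 the window sum was 19638 ± 3331 RPM in WT and 16649 ± 3568 in sa37 (SD, n = 4), a ratio of 0.848, and 0.780 to 0.884 within the 4 pairs of libraries of the same stage and replicate number. The regions at least 4-fold lower in sa37 accounted for 4143 ± 640 RPM in WT and 91.5 ± 63.8 in sa37, and the strong regions under 4-fold had a ratio of 1.07. On chromosome 25 the sum was 69764 ± 10422 RPM in WT and 58365 ± 11371 in sa37, a ratio of 0.837, and 0.788 to 0.884 within pairs. There the at least 4-fold lower regions went from 5143 ± 2449 RPM in WT to 110 ± 86.2 in sa37, the at least 4-fold higher regions went from 270 ± 236 to 3873 ± 1408, and the strong regions under 4-fold had a ratio of 0.843. The genotype ranges overlapped in both windows, and replicate 1 gave higher sums than replicate 2 in every group.

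**Figure D4:**
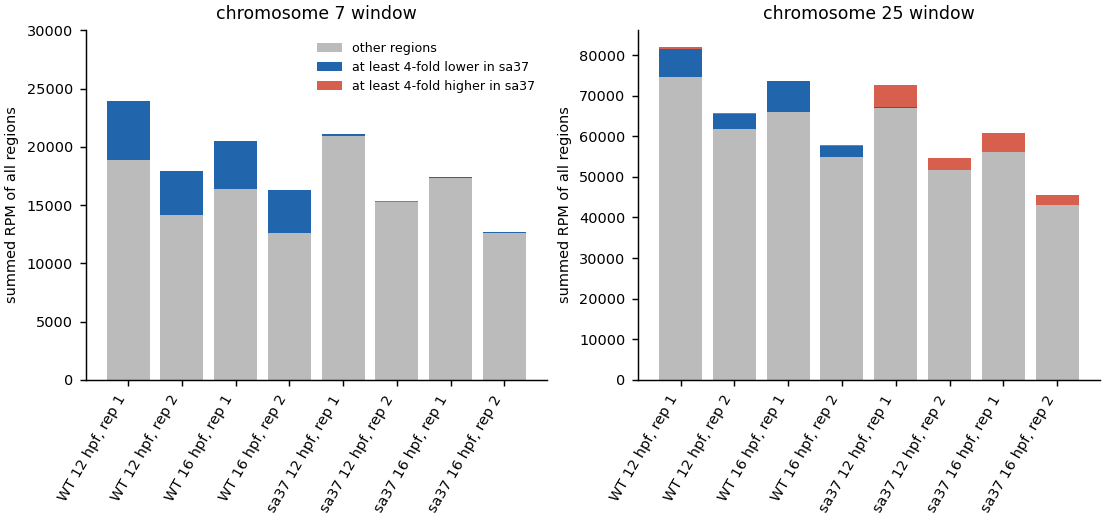
Summed RPM of all regions of each window in each library, split into regions at least 4-fold lower in sa37, at least 4-fold higher in sa37 and all others. On chromosome 7 the lower regions add 4143 RPM on average in WT and 91.5 in sa37, and on chromosome 25 the higher regions reach 3873 RPM on average in sa37.

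The stage contrasts took no part in choosing the windows and were tested by limma over all 19000 regions. Without a replicate term, limma called no window region between 12 and 16 hpf in WT (0.0421% of all regions) or in sa37 (0.1%). Unadjusted, 8 and 6 window regions had a p under 0.05, or 6.11% and 4.58%, against 6.43% and 6.44% of all regions. On the recovered tag counts edgeR called 0 in each genotype (0.00526% of all regions in each). DESeq2 called 3 in each (2.29%, against 4.53% of all regions in WT and 3.72% in sa37). With the replicate block, limma called 10 of 131 window regions in WT and 11 in sa37, against 13.8% and 14.3% of all regions. In the windows these make 7.63% and 8.40%. With the block edgeR called 6 in WT (4.58%, against 8.71%) and 10 in sa37 (7.63%, against 7.88%). The fit without the block can miss changes where the replicate numbers differ, so its low counts do not show that levels were equal at the 2 stages.

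Averaged over genotypes, limma called 3 window regions, all higher at 16 hpf and all on the plus strand of the chromosome 25 window, outside the array. Over the genome 1.88% of regions were called, 1.51% higher and 0.374% lower at 16 hpf. On the recovered tags edgeR also called 3 (2.29%, against 2.9%), all higher, and DESeq2 6 (4.58%, against 9.52%), all higher. The region chr25:34515167-34515264 was at 0.94 and 1.63 RPM in WT at 12 hpf (replicates 1 and 2), 10.3 and 8.70 in WT at 16 hpf, 2.99 and 5.10 in sa37 at 12 hpf, and 13.3 and 12.6 in sa37 at 16 hpf. It rose by 1.86 ± 0.25 (SE) on the log2(RPM + 1) scale, with an adjusted p of 0.0218 by limma and 0.000717 with the replicate block. Its 16 hpf values were above its 12 hpf values in 4 of 4 pairs.

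The others were weaker still. The region chr25:34135377-34135390 was listed at 0 in all 4 libraries of 12 hpf and at 0.98 to 4.07 RPM in the 4 of 16 hpf, a rise of 1.77 ± 0.23 (SE; 4.59 with a pseudocount of 0.1) with an adjusted p of 0.0188 by limma and 0.000369 with the replicate block. The region chr25:34997621-34997656 was at 0 to 1.55 RPM at 12 hpf and 1.84 to 5.03 RPM at 16 hpf, a rise of 1.60 ± 0.25 (3.15 with a pseudocount of 0.1) with adjusted p of 0.0330 by limma and 0.000767 with the block. The stages did not overlap in either. With any one of the 8 libraries left out, limma without the block called none of the 3, with adjusted p from 0.0564 to 0.160.

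With the replicate block, limma called 18 of the 131 window regions in the average over genotypes, or 13.7%, against 27.9% of all regions. Of these 10 were higher at 16 hpf (7.63% of the window's regions, against 20.2%) and 8 lower (6.11%, against 7.73%). This balance turned with the method. On the recovered tags edgeR with the block called 37 (28.2%, against 21.3%), 6 higher (4.58%, against 11.3%) and 31 lower (23.7%, against 9.96%). Under quantile normalization limma with the block called 22, 8 higher (6.11%, against 14.1%) and 14 lower (10.7%, against 13%). All 10 that limma with the block called higher lay outside the arrays' strong regions and outside their 200-base surroundings. On chromosome 7 they were led by chr7:73866232-73866277 on the minus strand, which went from 0 to 1.14 RPM at 12 hpf to 1.28 to 3.40 RPM at 16 hpf (adjusted p = 0.0023 by limma with the block and 0.261 without). After it came chr7:73016194-73016213 on the minus strand (1.02 ± 0.13, adjusted p = 0.00258 and 0.336 by limma) and chr7:73548428-73548560 on the plus strand (0.91 ± 0.13, adjusted p = 0.00423 and 0.155 by limma).

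Among the 60 strong start sites limma with the block called 3, all lower at 16 hpf. Of the 1108 strong regions elsewhere it called 179 higher and 113 lower. For the same contrast edgeR with the block called 25 of the 60, all lower, and of the 1108 strong regions elsewhere it called 114 higher and 224 lower. The region chr7:73603269-73603316 on the plus strand was at 1136 and 449 RPM in WT at 12 hpf, 693 and 358 in WT at 16 hpf, 760 and 280 in sa37 at 12 hpf, and 474 and 239 in sa37 at 16 hpf. It was lower at 16 hpf in 4 of 4 pairs, by -0.49 ± 0.13 on the log2 scale (SE, adjusted p = 0.0319 by limma with the block and 0.932 without). The region chr7:73598848-73598868 on the plus strand differed by -0.37 ± 0.10 (adjusted p = 0.0328 by limma with the block and 0.779 without). The region chr25:34553095-34553108 on the plus strand differed by -0.44 ± 0.12 (adjusted p = 0.0349 by limma with the block and 0.56 without).

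Nearly all strong regions leaned the same way between stages. Of the 60, 57 had a lower average at 16 than at 12 hpf, with a median difference of -0.22, and 37 (61.7%) were lower in 4 of 4 pairs. Of the 1108 strong regions elsewhere, which were not matched for level, 510 had a lower average at 16 hpf. Of these 1108, 24.01% were lower in 4 of 4 pairs, and their median was 0.04. Of all 19000, 7776 had a lower average and 16.3% were lower in 4 of 4 pairs, with a median of 0.08. The lean was present in both genotypes, with medians of -0.19 in WT and -0.26 in sa37. Under quantile normalization, which shifted the genome-wide median from 0.08 to -0.05, 56 of the 60 stayed below 0 with a median of -0.24. Elsewhere it was 540 of the 1108, with a median of 0.02. In edgeR with TMM all 60 were below 0, with a median of -0.35, against 648 of the 1108 elsewhere, with a median of -0.08. The one strong region far below the others, at -2.38, was chr25:34551618-34551631 with its WT library at 0. In the window sums the 16 to 12 hpf ratio was 0.825 to 0.907 on chromosome 7 and 0.834 to 0.898 on chromosome 25 over the 4 pairs.

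**Figure D5:**
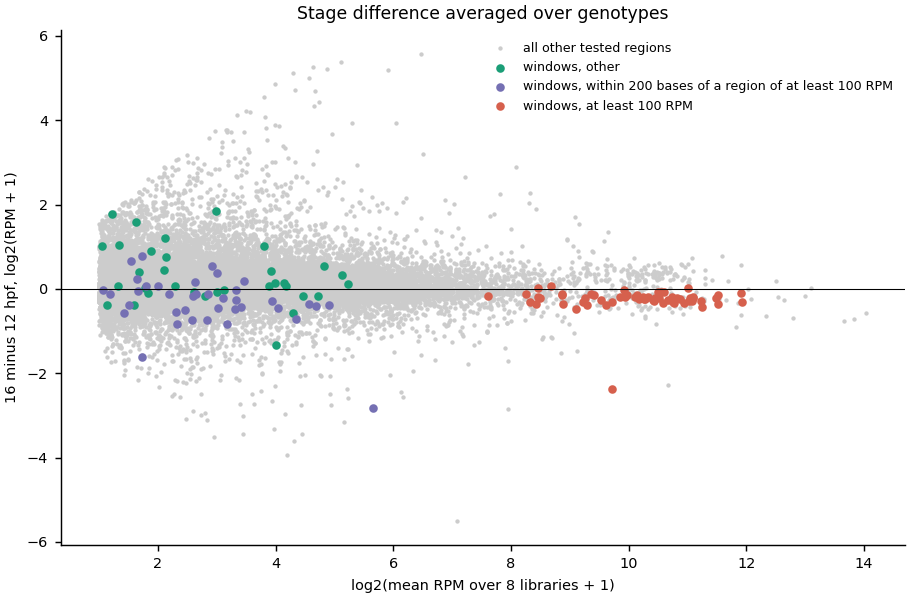
The 16 minus 12 hpf difference averaged over genotypes on the log2(RPM + 1) scale, against log2(mean RPM over 8 libraries + 1), for all other tested regions (grey) and for the window regions by kind. The strong regions lie in a band around -0.22, with 1 at -2.38. The other window regions, neither strong nor within 200 bases of a strong region on the same strand, spread to 1.86. Weak regions within 200 bases of a strong region reach down to -2.83.

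No difference between genotypes was found to change with stage. For the genotype by stage interaction limma called 0 of the 131 window regions and 0% of all regions, without the replicate block and with it (0%). Unadjusted, 1 and 7 window regions had a p under 0.05, or 0.763% and 5.34%, against 0.242% and 4.59% of all regions. On the recovered tags edgeR called 0 in the windows and 0% of all regions, without the block and with it, and DESeq2 called 0 in the windows and 0.0368% of all regions. Among the regions at least 4-fold apart the smallest unadjusted interaction p in limma with the block was that of chr25:34632507-34632517, at 0.0467 (adjusted p = 0.985). A miss at this threshold does not show that the differences were equal at both stages.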

How the data were processed

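Each deposited file gives 1 value per tag cluster in RPM. The labels' protocols describe cap capture on beads and linker ligation, and the submitters' processing notes name danRer10, BWA and HISAT2 without role or version. Clustering and normalization are not given in the sources used here. The authors' RPM columns add up to 936556 to 945905 in replicate 1 and to 1000000 within rounding in replicate 2. Rows repeated with the same value were dropped (412 in list 1, 796 in list 2). Clusters sharing 1 base or more on the same strand were merged across the 2 lists, with the end read as exclusive, and their values were added per library. Whether starts count from 0 or 1 is not stated. Regions of both lists with a mean of at least 1 RPM were tested (19000).

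The main test was limma 3.58.1 (R 4.3.3) on log2(RPM + 1), two-sided, with 4 group means and Benjamini-Hochberg adjustment over all 19000 regions. This scale understates the change of low regions. Calls were made at adjusted p values below 0.05. The replicate block came from the titles' numbers. Deviations of same-numbered libraries from their group means correlated with r of 0.68 to 0.83 across regions, so the block is given beside each count, although the number also marks the list. Values were whole multiples of 1 tag in 99.99 to 100% of cases (within rounding), and edgeR 4.0.16 and DESeq2 1.42.0 were run on the recovered tags. The limma fits of the stage average were tested on simulated data that kept the difference between replicate numbers. The fit with the block recovered nearly all changed regions and the fit without it recovered none. The simulation gave every group the same replicate difference and a common spread, and all its changes were 4-fold. This outcome was thus nearly fixed by the setting. The real replicate differences were shared only in part, and on the data the fit without the block called 1.88% of all regions. The simulation does not rank the fits, and a lack of calls without the block does not show equal levels. The edgeR and DESeq2 fits, the single-genotype contrasts and the interaction were not simulated. The windows, the classes of regions and the tests were chosen with earlier results of these data known. The text names regions at least 4-fold apart between genotypes and their neighbours, the 3 highest per window, up to 3 called regions per window and contrast, and those at the bounds. The 2- to 4-fold strong regions, the 3 strong regions called between stages and chr7:73604734-73604778 were named after their values were seen. Other settings are listed with their effects in the closing section.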

Additional observations from a re-analysis of the deposited data

Results flagged for a closer look

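In the regions at least 4-fold apart, a library stood far from the other 3 of its genotype in 4 cases. A group here is the 4 libraries of a genotype at a region. It mixes both stages and both cluster lists, so its libraries are not replicates of a single condition. Chance flags about 1 in 20 groups, but that rate does not hold where the other libraries are at or near 0, as in the last 3 cases below, since any value above 0 then stands apart. The region chr25:34551618-34551631 was at 0 RPM in replicate 1 of WT at 16 hpf, where its partner library had 211 RPM. The region chr25:34632507-34632517 was at 2.14 RPM in replicate 1 of sa37 at 12 hpf, against 0 to 0.125 RPM in the remaining sa37 libraries. The region chr7:73635808-73635849 was at 0.572 RPM in replicate 2 of sa37 at 12 hpf, with 0 to 0.042 in the others. The region chr7:73043139-73043173 was at 0.086 RPM in replicate 2 of WT at 12 hpf, and the other WT libraries were at 0. That value is below the floor of 3 tags (0.129 RPM) of its own library, so it is not distinguishable from 0.

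Among regions of one list alone, which entered no comparison, 3 of 147 in the windows had at least 5 RPM in both WT libraries of that list and under 0.5 RPM in both sa37 libraries, and 0 showed the opposite. Over the genome the numbers were 11 and 5 of 18528. The region chr25:34560838-34560839 (plus strand, list 1) had a mean of 12.6 RPM in WT, chr25:34605686-34605689 (minus strand, list 1) had 9.63 RPM, and chr25:34638411-34638415 (minus strand, list 2) had 8.58 RPM. All 3 lay within 200 bases of a strong region on the same strand. The last is 10 bases from chr25:34638425-34638435, which was itself at least 4-fold lower in sa37. Because chr25:34560838-34560839 is 1 base wide, its value of 0 in the sa37 libraries of list 1 may hide more than 0.5 RPM.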

How the results depend on the processing

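In WT, the called window regions between stages numbered 0 in limma, 10 in limma with the replicate block, 6 in edgeR with the block and 3 in DESeq2. In sa37 they numbered 0, 11, 10 and 3. There a pseudocount of 0.1 gave 1 (0.763%, against 0.0316% of all regions) and quantile normalization gave 1 (0.763%, against 1.27%). Averaged over genotypes they numbered 3, 18, 37 and 6 (2.29%, 13.7%, 28.2% and 4.58% of the windows' regions, against 1.88%, 27.9%, 21.3% and 9.52% of all), with 0, 8, 31 and 0 of them lower at 16 hpf, and 0 with any single library left out. Settings added after seeing the data combined the replicate block with another choice. They gave 4 in WT, 4 in sa37 and 11 on average with a pseudocount of 0.1, 10, 12 and 18 without the filter on low values, 8, 9 and 22 under quantile normalization, 9, 11 and 17 with regions of one list counted as 0, and 9, 10 and 15 with clusters merged within 100 bases. The cause of these shifts was not tested. The interaction gave 0 in the windows under every setting run.

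The count of regions at least 4-fold apart was 15, 26 with a pseudocount of 0.1, and 11 to 17 under all other settings, leaving out single libraries included (14 to 17). The 11 came from 95 regions, after merging clusters within 100 bases. The setting without the filter compared 152 regions, that with regions of one list counted as 0 compared 171, and the others 131. The share over all regions is given for the main setting only. With that pseudocount the difference of chr25:34601787-34601808 was 11.95 and that of chr7:73629474-73629491 was -13.17. No named difference reversed. Of 135 values of named genotype differences under alternatives, 126 moved by less than the spread and 9 by more. Most of the 135 left out a single library, and the rest used the pseudocount of 0.1. Most of the 9 came from that pseudocount, so the pooled count says little about its effect. A move within the spread could still be large. The difference of chr25:34551618-34551631 went from 4.26 to 2.22 without a single WT library and counts among the 126. A tag was 0.0415 to 0.0854 RPM, so values near 0 in the weak regions rest on a few tags or none.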

Other observations

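A small part of the repeated rows fell in the chromosome 25 window. Of 412 repeats in list 1, 17 lay there, and of 796 in list 2, 11, while the chromosome 7 window held 0. The repeats of the chromosome 25 window held 5089 to 7473 RPM per library in replicate 1 and 3623 to 6015 RPM in replicate 2. This was 11.1 to 27.5% of all repeated RPM. With repeats dropped, that window held 4.70 to 8.93% of the summed RPM of a library's distinct clusters. Each repeated cluster of the window was listed at most 2 times.

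In 13 of the 131 compared window regions, at least 1 library was at or under its floor while the other library of its group had at least 5 RPM, against 239 of 19000 regions in the genome. The partner had at least 100 RPM in 1 window region and in 8 regions of the genome. At chr7:73604734-73604778 on the plus strand, replicate 2 of WT was at 128 RPM at 12 hpf and 0.042 RPM at 16 hpf, while replicate 1 was at 34.7 and 9.66 RPM. In sa37 that region was at 21.0 and 131 RPM at 12 hpf (replicates 1 and 2) and at 6.36 and 63.8 RPM at 16 hpf.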
